A study of Mus musculus with 30 samples.

Results

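The livers of combined PPARα/CREB3L3−/− mice were compared after a ketogenic diet and after a fast, over every probe set that carries a single gene symbol. The comparison took in 8 of the 30 arrays of the series and 21218 of its 35556 probe sets, which cover 18820 genes. All mice were male, about 8 weeks old and kept on a C57BL/6 background. The PPARα/CREB3L3−/− mice lacked both factors in the whole body, and came from interbreeding a CREB3L3−/− line with the PPARα−/− line that carries the Pparatm1Gonz allele. 4 of them had eaten a ketogenic diet (Bio-Serv F3666) for 4 days and were killed in the morning without a fast, and 4 had been fasted for 16 h. PPARα−/− mice (3 on the diet, 3 fasted), CREB3L3−/− mice and wild-type (WT) mice (4 on the diet and 4 fasted of each) received the same regimens, and served here to show where the double knockout response differed. Food composition and time since the last meal both differ between the regimens, and no chow-fed group was analysed here, so their parts cannot be told apart. Which arrays shared a hybridization plate is not given in the sources used here.

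PPARα is a nuclear receptor that is activated by fatty acids and that drives hepatic fatty acid oxidation and ketogenesis when fat is the main fuel. CREB3L3 (CREB-H) is a transcription factor of liver and gut that is held in the membrane of the endoplasmic reticulum until it is cut loose, and it acts with PPARα on genes such as Fgf21. A ketogenic diet is very rich in fat and almost free of carbohydrate, so that it brings fatty acids to the liver from food, whereas a fast brings them from adipose tissue. RNA was read on Affymetrix Mouse Gene 1.1 ST arrays, and levels are given as log2 RMA intensities. A difference is the diet response, the mean level on the ketogenic diet minus the mean level in the fasted livers, on the log2 scale with its standard error (SE). The adjusted p is that of limma with Benjamini-Hochberg adjustment over all probe sets.

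The signals of the ablated genes were read first. Creb3l3 had 5.16, 4.57, 4.90 and 4.97 in the ketogenic PPARα/CREB3L3−/− livers, and 5.36, 4.53, 4.83 and 4.87 in the fasted ones, against 10.45 ± 0.02 and 11.10 ± 0.14 in ketogenic and fasted WT livers (SD, n = 4 each). Ppara averaged 7.26 ± 0.44 in ketogenic and 8.15 ± 0.76 in fasted PPARα/CREB3L3−/− livers (SD, n = 4 each). Since that allele lacks only part of Ppara, its probe set is no check on the knockout. Fgf21, the fasting hormone controlled by both factors, had 3.86, 3.60, 4.22 and 3.64 in ketogenic livers and 4.41, 4.46, 3.74 and 3.57 in fasted livers of PPARα/CREB3L3−/− mice. The groups overlapped, and the difference was -0.22 (SE 0.45, adjusted p = 0.792).

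The first principal component separated the regimens and held 56.0% of the variance of the 8 livers. Ketogenic liver 3 stood apart from the other livers of its group, at 57.5 on this component against 33.6 to 41.5 and at -43.5 on the second, which held 12.4% (plot of principal components). Its median correlation with its own group was 0.979, against 0.988 for each of the other 3. It also carried more signal of the neutrophil markers, with a list mean of 4.45 against 3.31 to 3.53 in the other ketogenic livers and 3.15 to 3.41 in the fasted ones. Each leading count below is therefore also given without this liver where it moves by more than 1.5 times. The hepatocyte markers, which include albumin and transthyretin, had list means of 12.48 to 12.63 in ketogenic livers and 12.91 to 12.98 in fasted livers, and 5 of the 10 fell. In whole liver, fewer cells of a type and less RNA per cell cannot be told apart.

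**Figure D1:**
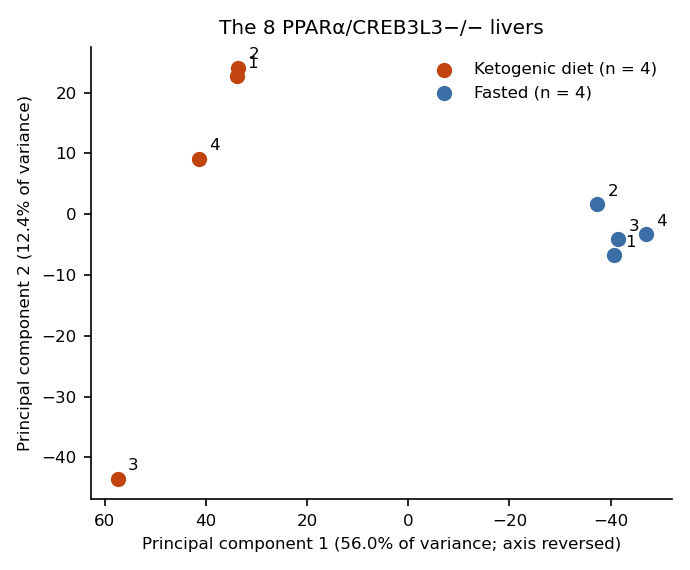
First and second principal components of the 8 PPARα/CREB3L3−/− livers over 8293 probe sets with an interquartile range above 0.5, as component scores; each point is a liver with its replicate number, ketogenic diet in red and fasted in blue. The ketogenic livers lie at 33.6 to 57.5 on the first component and the fasted livers at -46.9 to -37.4.

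Between ketogenic and fasted livers, 3892 of the 21218 probe sets with 1 symbol differed by the call rule (18.3% of those tested). On the diet 1968 were higher (9.28%) and 1924 lower (9.07%). The rule asks for P under 0.001, unadjusted, together with more than a 1.2-fold change, and it is meant wherever a gene is said to have been called, to have risen or to have fallen. Read on 1 probe set per gene, 1477 genes rose (7.85% of the 18820) and 1793 fell (9.53%). When each array was centred on its median, the split over probe sets became 2481 higher and 1506 lower (62.2% higher, against 50.6% in the values as deposited). The median diet response of all genes was 0.03, and 892 genes (4.74%) had a difference of at least 2-fold in either direction.

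The gene with the largest increase was Igf2bp3, an RNA-binding protein of the fetal liver that is nearly silent in adult hepatocytes. Igf2bp3 had 8.08, 8.01, 8.22 and 8.61 in ketogenic livers and 2.96, 3.18, 3.25 and 3.41 in fasted livers, an increase of 5.03 (SE 0.21, adjusted p = 1.81e-14). The groups lay far apart, with little spread within either. Pls1, which encodes the actin-bundling protein plastin 1, had 8.17, 8.59, 8.05 and 8.43 in ketogenic livers and 4.83, 4.04, 4.08 and 5.28 in fasted livers, an increase of 3.76 (SE 0.32, adjusted p = 1.19e-09). Mfge8, a secreted protein that tags dying cells for uptake, had 9.23, 9.47, 9.15 and 9.29 on the diet and 6.59, 6.15, 6.32 and 6.57 after the fast, an increase of 2.88 (SE 0.14, adjusted p = 5.32e-14). Gpx3, the secreted glutathione peroxidase, rose by 3.08 (SE 0.25, adjusted p = 4.11e-10). Among the other largest increases were Dab1, an adaptor of reelin signalling (3.58), the phosphomannomutase Pmm1 (3.41), the fatty acid elongase Elovl7 (3.37), the ligand Wnt4 (3.33) and the endosomal tetraspanin Cd63 (3.28). Gm6614 (3.31), gliomedin Gldn (3.07), the trehalase Treh (3.07), Gipc2 (2.94) and the chitinase-like protein Chil3 (2.75) made up the 14 largest, which were picked among genes whose groups did not overlap. Non-overlapping groups with the diet higher were found for 12.8% of all genes, and with the diet lower for 14.4%.

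The largest decrease was that of Scd1, the stearoyl-CoA desaturase that makes oleate and palmitoleate. Scd1 had 5.82, 6.26, 6.77 and 6.51 in ketogenic livers and 12.37, 12.06, 12.12 and 12.69 in fasted livers, and it fell by 5.97 (SE 0.31, adjusted p = 1.12e-13). Car3, carbonic anhydrase 3, had 7.56, 6.34, 6.70 and 7.29 on the diet and 12.76, 11.78, 12.51 and 13.05 after the fast, and fell by 5.56 (SE 0.53, adjusted p = 7.04e-09). Elovl3, an elongase of very long chain fatty acids that is higher in male than in female liver, had 5.97, 5.52, 5.10 and 5.80 on the diet and 10.74, 10.64, 11.11 and 9.49 after the fast, and fell by 4.90 (SE 0.51, adjusted p = 3.41e-08). In none of these 3 genes did the groups come within 3 log2 units of each other. The 14 largest decreases further held the carboxylesterase Ces3a (-4.45), the serpin pseudogene Serpina4-ps1 (-4.49), the transporter Slc22a30 (-4.02), the type 1 deiodinase Dio1 (-3.95), the elastase inhibitor Serpinb1a (-3.73) and the sulfotransferase Sult2a8 (-3.70). The remaining 5 are induced by interferons: Ifit1 (-4.36), Ifit3 (-4.16), Cxcl9 (-3.83), Gbp3 (-3.82) and Rtp4 (-3.67). Members of the Serpina, Sult2a, Ces and Ifit families have close copies in the mouse genome, and probe sets may share signal between them.

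**Figure D2:**
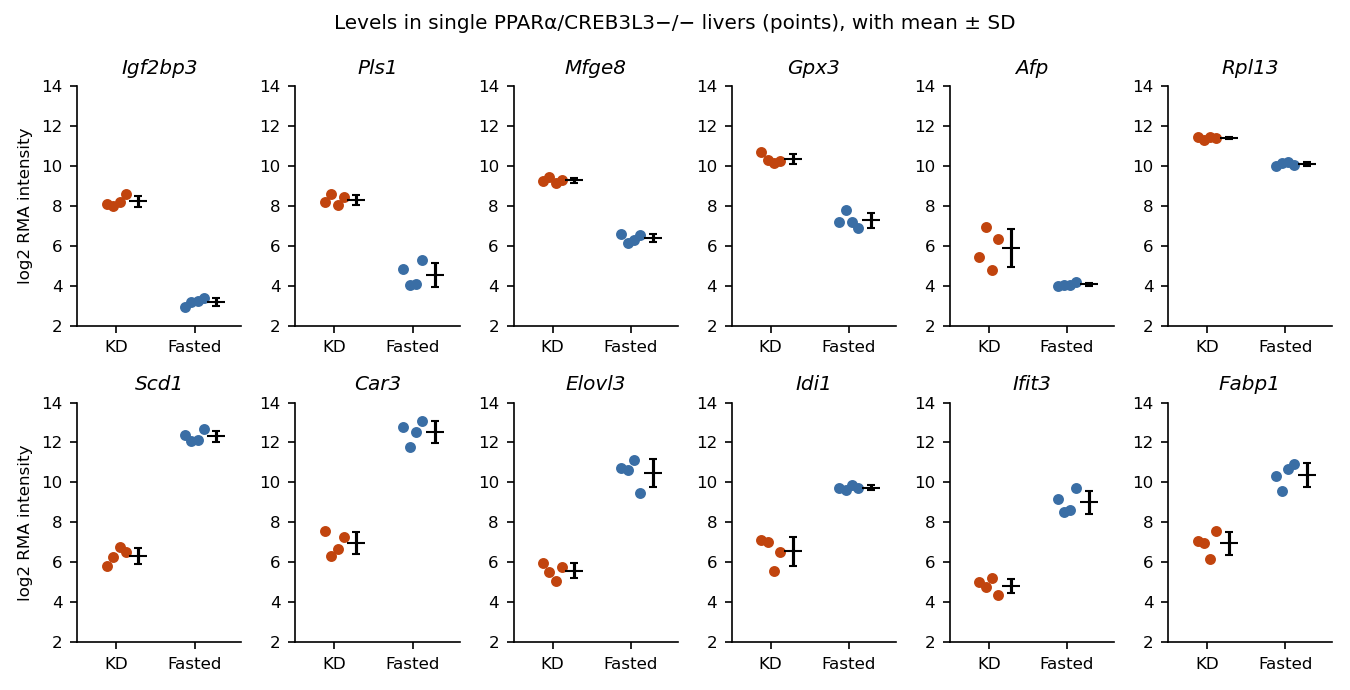
Log2 RMA intensity of 12 genes in the single ketogenic (KD, red, left) and fasted (blue, right) PPARα/CREB3L3−/− livers; points are livers, and the bar beside them gives the mean ± SD of 4. The upper row shows genes higher and the lower row genes lower on the ketogenic diet. Igf2bp3 lies at 8.01 to 8.61 in ketogenic and 2.96 to 3.41 in fasted livers, and Scd1 at 5.82 to 6.77 in ketogenic and 12.06 to 12.69 in fasted livers.

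Genes were then read in 45 lists of pathways, with 1 probe set per gene. The share of members that rose or fell is to be set against 7.85% and 9.53% of all genes. The lists with the lowest medians were the interferon-stimulated genes (-2.49) and the male-biased genes (-2.32), and the list with the highest median was that of cytosolic ribosomal proteins (0.81).

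**Figure D3:**
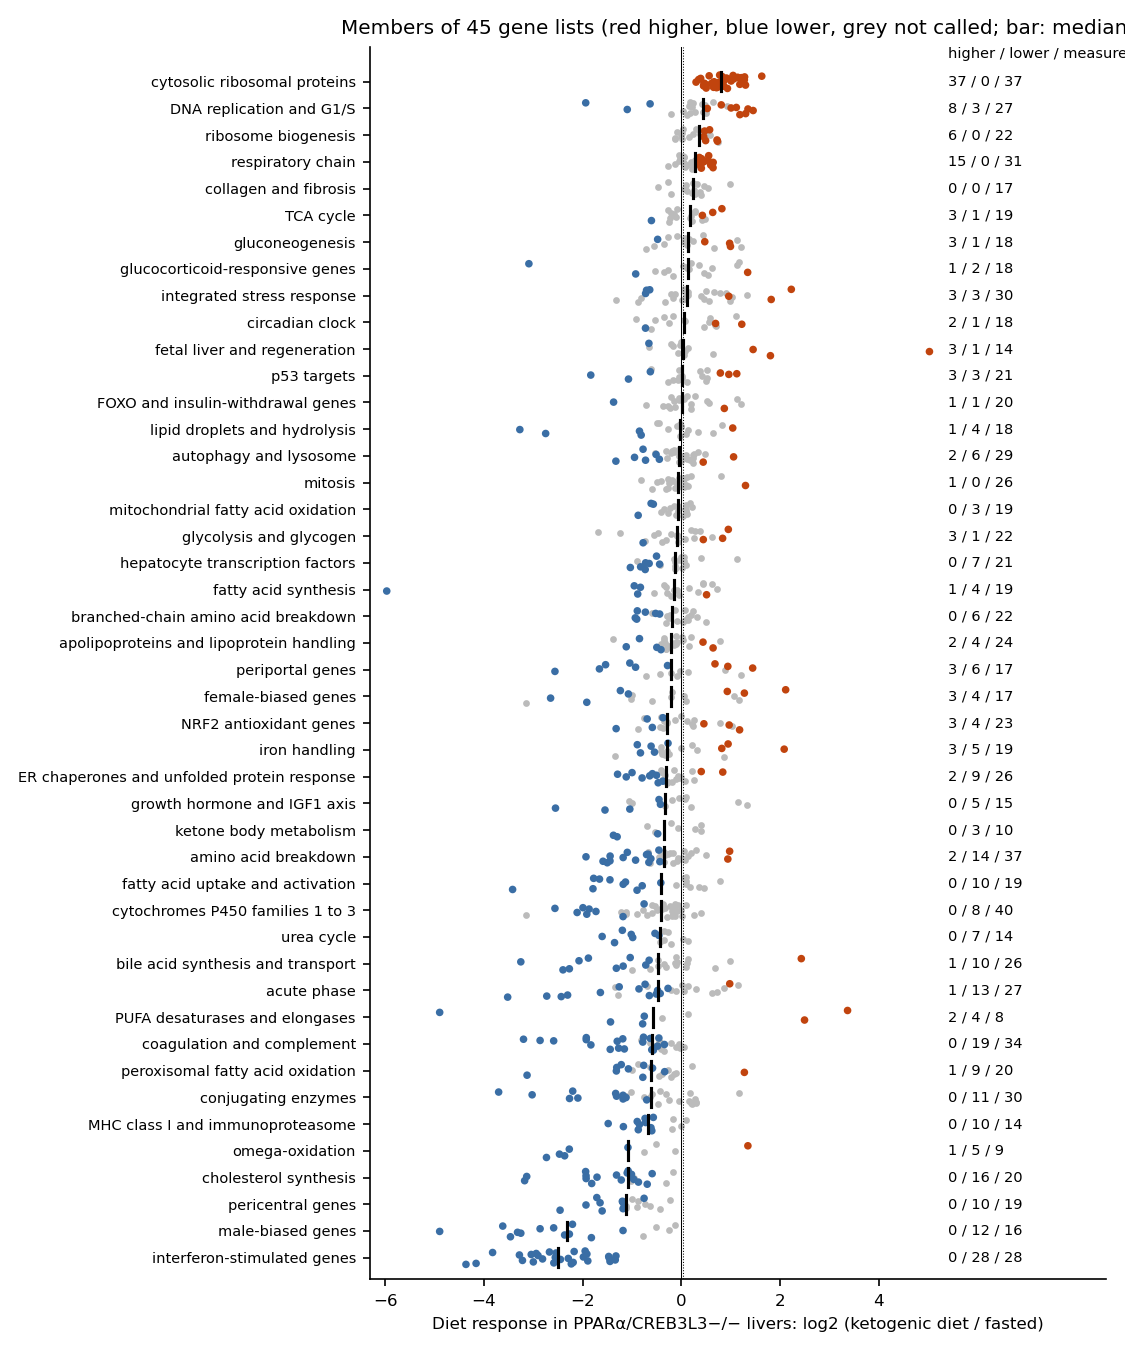
Diet response (log2, ketogenic diet over fasted) of the measured members of 45 gene lists in PPARα/CREB3L3−/− livers, ordered by their median (black bar); red and blue points are genes called higher and lower, grey points were not called, and the dotted line is the median of all genes. The numbers on the right count higher, lower and measured members, from 37 / 0 / 37 for ribosomal proteins to 0 / 28 / 28 for interferon-stimulated genes.

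At the RNA level cholesterol synthesis was lower on the ketogenic diet. Its enzymes are transcribed under SREBP2, which is released when membranes run short of sterol, and whose sites often lie beside a CCAAT box bound by NF-Y. Of 20 members measured, 16 fell, 0 rose and 4 were not called, with a median of -1.09 and all 20 differences below 0. The list means were 7.81, 7.85, 7.23 and 7.62 in the ketogenic livers and 9.06, 8.82, 9.03 and 8.98 in the fasted livers, and ketogenic liver 3 was the lowest. Without that liver, 11 of the 20 were called lower. The promoters of Hmgcs1, an early enzyme of the pathway, and of Insig1, the sterol-sensing retention factor of the SREBPs, are shown as examples. Each carries CCAAT together with another of the motifs searched. They run from 250 bases before to 50 bases after the RefSeq start in GRCm38.p6, at chr13:119690101-119690400 and chr5:28071162-28071461, both on the plus strand. The capitals mark CCAAT in its reverse reading (attgg) in both, with the sterol element core TCACNCCAC in Hmgcs1 and the E-box CACGTG in Insig1.
Hmgcs1: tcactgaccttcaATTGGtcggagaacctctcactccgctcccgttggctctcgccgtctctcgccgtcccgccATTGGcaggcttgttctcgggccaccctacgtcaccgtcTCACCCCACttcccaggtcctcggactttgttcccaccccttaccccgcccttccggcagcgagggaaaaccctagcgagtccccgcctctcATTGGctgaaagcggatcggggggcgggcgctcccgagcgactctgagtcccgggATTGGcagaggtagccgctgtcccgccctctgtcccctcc
Insig1: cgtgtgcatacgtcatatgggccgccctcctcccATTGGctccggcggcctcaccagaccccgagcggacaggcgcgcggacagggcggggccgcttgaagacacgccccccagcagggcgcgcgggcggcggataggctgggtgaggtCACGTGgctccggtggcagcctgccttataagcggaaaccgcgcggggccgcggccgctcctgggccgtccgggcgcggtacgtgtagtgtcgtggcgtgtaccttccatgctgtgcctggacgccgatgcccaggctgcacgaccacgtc
On either strand, CCAAT was found in 16 of 19 promoters of the list (84.2%) and in 37.4% of all 32851 promoters. TCACNCCAC was found in 1 of the 19 and in 1.24% of all promoters, and CACGTG in 4 of the 19 and in 7.15%. A match is only a description of the letters.

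Along the pathway the decreases ran from the first to the last steps. Hmgcs1 had 8.48, 8.56, 7.75 and 8.10 in ketogenic livers and 10.12, 9.96, 10.18 and 9.90 in fasted livers, and fell by 1.82 (SE 0.28, adjusted p = 1.66e-05). Idi1, which isomerizes isopentenyl diphosphate, had 7.12, 7.04, 5.55 and 6.55 on the diet and 9.75, 9.62, 9.88 and 9.71 after the fast, and fell by 3.18 (SE 0.43, adjusted p = 2.74e-06). The fasted livers lay within a narrow band and the ketogenic livers were spread over more than 1 log2 unit, with liver 3 lowest. Tm7sf2, a sterol reductase late in the pathway, had 5.81, 5.74, 5.37 and 6.55 in ketogenic livers and 9.33, 8.60, 8.86 and 9.20 in fasted livers, and fell by 3.13 (SE 0.30, adjusted p = 6.13e-09). Insig1 fell by 1.94 (SE 0.29, adjusted p = 8.97e-06) and Sc5d by 1.10 (SE 0.14, adjusted p = 8.98e-07). In the other genotypes the median of the list was 0.24 in PPARα−/−, -0.05 in CREB3L3−/− and 0.75 in WT livers. The fasted PPARα/CREB3L3−/− livers were themselves high in these genes, with a mean of 8.97 ± 0.11 against 8.06 ± 0.23 in fasted WT livers (SD, n = 4 each), as were the fasted CREB3L3−/− livers at 9.05 ± 0.24 (SD, n = 4).

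Fatty acid synthesis changed less than Scd1 alone would show. Of its 19 members, 4 fell, 1 rose and 14 were not called, with a median of -0.15, and 2 fell when ketogenic liver 3 or fasted liver 3 was left out. Dgat2, which adds the last acyl chain of triglyceride, fell by 0.95 (SE 0.11, adjusted p = 2.95e-07). Acaca, the first enzyme of the pathway, rose by 0.51 (SE 0.12, adjusted p = 0.00147), and Fasn had a difference of -0.54 (SE 0.24, adjusted p = 0.118). Acaca was not called without ketogenic liver 2 (0.46), and Fasn was called lower with the 8 double knockout arrays fitted alone. Among 8 desaturases and elongases, 4 fell and 2 rose. Fads2, the delta-6 desaturase, had 7.56, 7.56, 7.18 and 7.38 in ketogenic livers and 8.92, 8.17, 8.76 and 9.56 in fasted livers, and fell by 1.43 (SE 0.25, adjusted p = 0.000103). Its neighbour Fads3 had 8.48, 8.74, 7.69 and 7.41 on the diet and 5.35, 5.44, 5.60 and 5.92 after the fast, and rose by 2.50 (SE 0.21, adjusted p = 1.12e-09). Fads1, the delta-5 desaturase, fell by 0.78 (SE 0.15, adjusted p = 0.000221), while the elongases Elovl3 and Elovl7 moved in opposite directions, as given above. In both members that rose the lowest ketogenic liver was above the highest fasted liver.

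The oxidation of fatty acids is the classical output of PPARα, which these mice lack. In the mitochondrial list 3 of 19 members fell and 0 rose (median -0.07). Cpt1a, the gatekeeper of mitochondrial entry, had 10.58, 10.75, 10.70 and 10.60 in ketogenic livers and 10.59, 10.55, 10.62 and 10.73 in fasted livers, and its difference was 0.03 (SE 0.08, adjusted p = 0.816). Cpt2, which acts after it, fell by 0.87 (SE 0.09, adjusted p = 6.81e-08). In the peroxisomal list 9 of 20 fell and 1 rose (median -0.61). Acaa1b, a peroxisomal thiolase, had 6.83, 7.0, 6.59 and 7.45 on the diet and 10.19, 9.99, 10.00 and 10.20 after the fast, and fell by 3.13 (SE 0.22, adjusted p = 2.04e-11), and Crot, which exports shortened chains, fell by 1.32 (SE 0.14, adjusted p = 6.81e-08). Of 9 omega-oxidation genes 5 fell and 1 rose (median -1.08), and Cyp4a14 fell by 2.73 (SE 0.47, adjusted p = 6.29e-05) and Cyp4a12b by 2.47 (SE 0.36, adjusted p = 7.89e-06). The Cyp4a genes lie in a cluster of close copies and may share signal.

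Genes of uptake and storage of fatty acids were also lower in part. Of 19 genes of uptake and activation 10 fell and 0 rose (median -0.42). Fabp1, the abundant fatty acid-binding protein of hepatocytes, had 7.05, 6.99, 6.18 and 7.60 in ketogenic livers and 10.34, 9.55, 10.69 and 10.90 in fasted livers, and fell by 3.42 (SE 0.38, adjusted p = 9.22e-08). Its intestinal relative Fabp2 fell by 1.79 (SE 0.23, adjusted p = 9.87e-07). Among 18 lipid droplet genes 4 fell and 1 rose. Plin4 fell by 2.75 (SE 0.21, adjusted p = 1.28e-10) and the droplet coat Plin2 by 0.81 (SE 0.15, adjusted p = 0.000119), a call that Plin2 lost with the 8 double knockout arrays fitted alone, while Fitm1, which partitions triglyceride into droplets, fell by 3.27 (SE 0.35, adjusted p = 4.73e-08). The member that rose was Pnpla2, the adipose triglyceride lipase, with 9.89, 10.04, 10.26 and 9.94 on the diet and 9.09, 8.99, 8.96 and 8.91 after the fast, an increase of 1.04 (SE 0.14, adjusted p = 2.9e-06). Of 10 ketone body genes 3 fell, and Bdh2, a cytosolic dehydrogenase, fell by 1.38 (SE 0.25, adjusted p = 0.000168). Among 24 apolipoprotein and lipoprotein genes 4 fell and 2 rose, Apob falling by 0.50 (SE 0.06, adjusted p = 4.42e-07) and Apoa5, which aids triglyceride clearance, rising by 0.64 (SE 0.12, adjusted p = 0.000274).

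Genes of glucose production were called in both directions. Of 18 gluconeogenic genes 3 rose and 1 fell (median 0.14), to be set against 7.85% and 9.53% of all genes. Slc37a4, the glucose-6-phosphate transporter, had 10.82, 10.99, 10.84 and 10.96 in ketogenic livers and 9.89, 10.06, 9.75 and 9.91 in fasted livers, and rose by 1.0 (SE 0.19, adjusted p = 0.000201). Its partner enzyme G6pc had 11.01, 11.37, 10.80 and 10.57 on the diet and 9.16, 9.85, 9.76 and 10.13 after the fast, a difference of 1.21 that did not pass (SE 0.39, adjusted p = 0.0254). Pck1, which makes phosphoenolpyruvate, had a difference of -0.72 (SE 0.35, adjusted p = 0.151). Both were called when the 8 double knockout arrays were fitted alone. The alanine aminotransferase Gpt rose by 0.98 (SE 0.12, adjusted p = 5.41e-07). Of 37 genes of amino acid breakdown 14 fell, 2 rose and 21 were not called (median -0.36). Oat, ornithine aminotransferase of the pericentral hepatocytes, fell by 1.93 (SE 0.15, adjusted p = 1.33e-10), and Hgd, of tyrosine breakdown, by 1.50 (SE 0.21, adjusted p = 4.2e-06). Of 14 urea cycle and ammonia genes 7 fell and 0 rose. Glul, the glutamine synthetase of the last cells before the central vein, had 10.35, 10.22, 10.37 and 11.11 in ketogenic livers and 12.11, 12.01, 12.23 and 12.12 in fasted livers, and fell by 1.60 (SE 0.15, adjusted p = 8.38e-09). Ketogenic liver 4 was the highest of its group, yet below every fasted liver. Otc, of the urea cycle itself, fell by 1.35 (SE 0.22, adjusted p = 3.32e-05).

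Pericentral and periportal genes mark the opposite ends of the liver lobule. Of 19 pericentral genes 10 fell and 0 rose, with a median of -1.12, and of 17 periportal genes 6 fell and 3 rose, with a median of -0.20. The difference between these lists was not tested. Without ketogenic liver 1 or fasted liver 1, 6 pericentral genes were called lower. Lgr5, a Wnt-dependent gene of the pericentral zone, fell by 1.65 (SE 0.22, adjusted p = 2.15e-06), and Cyp2f2, a cytochrome P450 of the periportal zone, by 2.56 (SE 0.18, adjusted p = 1.69e-11).

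Genes of bile acid synthesis and conjugation were lower in part. Of 26 genes of bile acid synthesis and transport 10 fell and 1 rose (median -0.46). Cyp8b1, the 12-alpha-hydroxylase that sets the share of cholic acid, had 7.02, 6.12, 6.51 and 6.57 in ketogenic livers and 9.55, 8.36, 8.56 and 9.34 in fasted livers, and fell by 2.40 (SE 0.38, adjusted p = 2.69e-05). Cyp7b1, of the alternative pathway, fell by 2.27 (SE 0.35, adjusted p = 1.72e-05). Cyp7a1, the rate-limiting enzyme of the classical pathway, had 7.67, 7.85, 4.78 and 7.56 on the diet and 8.40, 7.01, 7.98 and 8.49 after the fast, and its difference of -1.0 was within the spread (SE 0.79, adjusted p = 0.422). The gene that rose was Slc51b, a subunit of the basolateral bile acid exporter, with 6.73, 7.23, 6.34 and 7.05 in ketogenic livers and 4.09, 4.68, 4.34 and 4.51 in fasted livers, an increase of 2.43 (SE 0.36, adjusted p = 1.07e-05). Of 30 conjugating enzymes 11 fell and 0 rose (median -0.61). Of the 40 genes of cytochromes P450 families 1 to 3, 8 fell and 0 rose, and 4 fell without ketogenic liver 3 and 5 without ketogenic liver 1 or fasted liver 4, whereas 16 fell with the 8 double knockout arrays fitted alone. At 4 of 40 the share is close to the 9.53% of all genes. Cyp2c23 fell by 2.11 (SE 0.30, adjusted p = 5.43e-06).

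Genes that are higher in male liver form a group set by pulses of growth hormone. Of the 16 measured 12 fell and 0 rose, with a median of -2.32 and list means of 7.77, 7.68, 7.30 and 7.73 in ketogenic livers and 9.88, 10.06, 10.11 and 9.32 in fasted livers. The medians in the other genotypes were -2.59 in PPARα−/−, -3.42 in CREB3L3−/− and -0.64 in WT livers. Mup20, a major urinary protein that serves as a male scent signal, had 11.04, 11.25, 10.67 and 11.24 in ketogenic livers and 12.77, 13, 12.89 and 12.82 in fasted livers, and fell by 1.82 (SE 0.23, adjusted p = 7.7e-07), and Mup21 fell by 3.46 (SE 0.31, adjusted p = 2.14e-09). Many Mup genes are close copies, so the signals of single Mup genes are uncertain. Of the female-biased genes, 4 of 17 fell and 3 rose. The growth hormone axis itself had 5 of 15 members lower and 0 higher. Igfals, which holds IGF1 in the blood, had 5.84, 6.25, 5.01 and 5.85 on the diet and 8.34, 7.79, 8.18 and 8.85 after the fast, and fell by 2.55 (SE 0.23, adjusted p = 2.65e-09). The growth hormone receptor Ghr fell by 1.55 (SE 0.12, adjusted p = 1.9e-10) and Igf1 by 1.04 (SE 0.10, adjusted p = 5.99e-09).

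Genes of plasma proteins made by hepatocytes were lower in part at the RNA level. Of 34 coagulation and complement genes 19 fell and 0 rose (median -0.59), with list means of 9.86 to 10.20 in ketogenic livers and 10.89 to 11.01 in fasted livers. C9, the pore-forming complement component, had 7.62, 6.95, 7.01 and 7.93 in ketogenic livers and 10.42, 10.66, 10.44 and 10.79 in fasted livers, and fell by 3.20 (SE 0.33, adjusted p = 3.69e-08). The thrombin inhibitor Serpind1 fell by 1.83 (SE 0.20, adjusted p = 5.8e-08). Among 27 acute phase genes 13 fell and 1 rose. C-reactive protein, Crp, had 10.22, 10.49, 9.65 and 10.38 on the diet and 11.87, 11.81, 11.79 and 11.83 after the fast, and fell by 1.64 (SE 0.14, adjusted p = 8.86e-10). Saa4 fell by 2.73 (SE 0.27, adjusted p = 1.36e-08) and haptoglobin, Hp, by 0.51 (SE 0.10, adjusted p = 0.000206), a call that Hp lost under repeated quantile normalization (-0.37). The list mean of ketogenic liver 3 was 10.31, against 9.51 to 9.73 in the other ketogenic livers and 10.30 to 10.47 in the fasted livers. Of 21 hepatocyte transcription factors 7 fell and 0 rose, and Hnf4a, the central regulator of the hepatocyte, fell by 0.73 (SE 0.06, adjusted p = 9.39e-10). Among 19 genes of iron handling, 5 fell and 3 rose, and 3 fell without ketogenic liver 3 or fasted liver 2. Id1, a target of BMP signalling, rose by 2.09 (SE 0.24, adjusted p = 1.47e-07), and the iron hormone Hamp had a difference of 0.87 that did not pass (SE 0.28, adjusted p = 0.0227) and did so with the 8 double knockout arrays fitted alone.

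All 28 measured interferon-stimulated genes fell, the group with the lowest median of the 45 (-2.49, range -4.36 to -1.32). Interferons switch on antiviral proteins through a complex that holds IRF9 and binds an element whose core reads GAAA, any 2 bases and GAAA again. Promoters of Ifit1 and Ifit3, which bind foreign RNA, are shown because these genes fell most in the list and carry this core in pairs. They cover the same window in GRCm38.p6, at chr19:34640639-34640938 and chr19:34583279-34583578 on the plus strand, and the capitals mark the core in its reverse reading.
Ifit1: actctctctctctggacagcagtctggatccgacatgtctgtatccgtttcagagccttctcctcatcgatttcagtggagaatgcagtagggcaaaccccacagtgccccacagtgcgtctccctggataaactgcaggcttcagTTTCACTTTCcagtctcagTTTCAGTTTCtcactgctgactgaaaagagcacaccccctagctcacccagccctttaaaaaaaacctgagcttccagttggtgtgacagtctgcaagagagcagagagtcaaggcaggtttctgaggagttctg
Ifit3: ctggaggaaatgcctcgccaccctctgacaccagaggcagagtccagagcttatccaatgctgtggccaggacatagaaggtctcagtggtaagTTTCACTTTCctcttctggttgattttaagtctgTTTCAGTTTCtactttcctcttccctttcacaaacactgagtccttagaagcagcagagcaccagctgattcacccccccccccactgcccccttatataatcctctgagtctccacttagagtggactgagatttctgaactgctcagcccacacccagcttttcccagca
On either strand the core was found in 15 of 25 promoters of the list (60%) and in 3.44% of all promoters, and this motif was chosen after the values were seen. Ifit1 had 5.12, 5.02, 5.35 and 4.05 in ketogenic livers and 9.53, 8.06, 9.04 and 10.36 in fasted livers, and fell by 4.36 (SE 0.49, adjusted p = 1.32e-07). Ifit3 had 5.02, 4.76, 5.20 and 4.39 in ketogenic livers and 9.16, 8.52, 8.61 and 9.71 in fasted livers, and fell by 4.16 (SE 0.31, adjusted p = 8.39e-11). In both genes fasted liver 4 was the highest, and the groups were separated by more than 2 log2 units. Irf9 itself fell by 2.29 (SE 0.18, adjusted p = 1.8e-10) and Oasl2, of the oligoadenylate synthetase family, by 3.22 (SE 0.24, adjusted p = 5.96e-11).

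The list means of the interferon-stimulated genes were 5.80, 5.85, 5.61 and 5.60 in ketogenic livers and 8.34, 7.81, 8.12 and 8.60 in fasted livers of PPARα/CREB3L3−/− mice. In PPARα−/− mice they were 5.91, 5.54 and 5.52 on the diet and 7.20, 8.04 and 7.23 after the fast, and the median response was -1.87. CREB3L3−/− livers had 6.62 to 7.25 on the diet and 6.49 to 7.06 after the fast, with a median response of 0.23, and WT livers had 6.82 to 8.08 on the diet and 6.66 to 7.10 after the fast, with a median response of 0.44. The fasted PPARα/CREB3L3−/− livers thus held the highest group mean of the 8 groups, and the ketogenic livers of both strains without PPARα the lowest. For all 28 genes the diet response was more negative than in WT, a difference called with that sign for 6.36% of all genes. Of the 28, 26 were more negative than in CREB3L3−/− livers (13.7% of all genes). From PPARα−/− livers 0 were called different (2.29% of all genes in either direction). At that share few calls would be found among 28 genes, so equal responses are not shown. The median difference of the list from PPARα−/− livers was -0.67. When 1 double knockout or PPARα−/− array was left out, 0 to 3 of the 28 were called different from PPARα−/− livers.

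**Figure D4:**
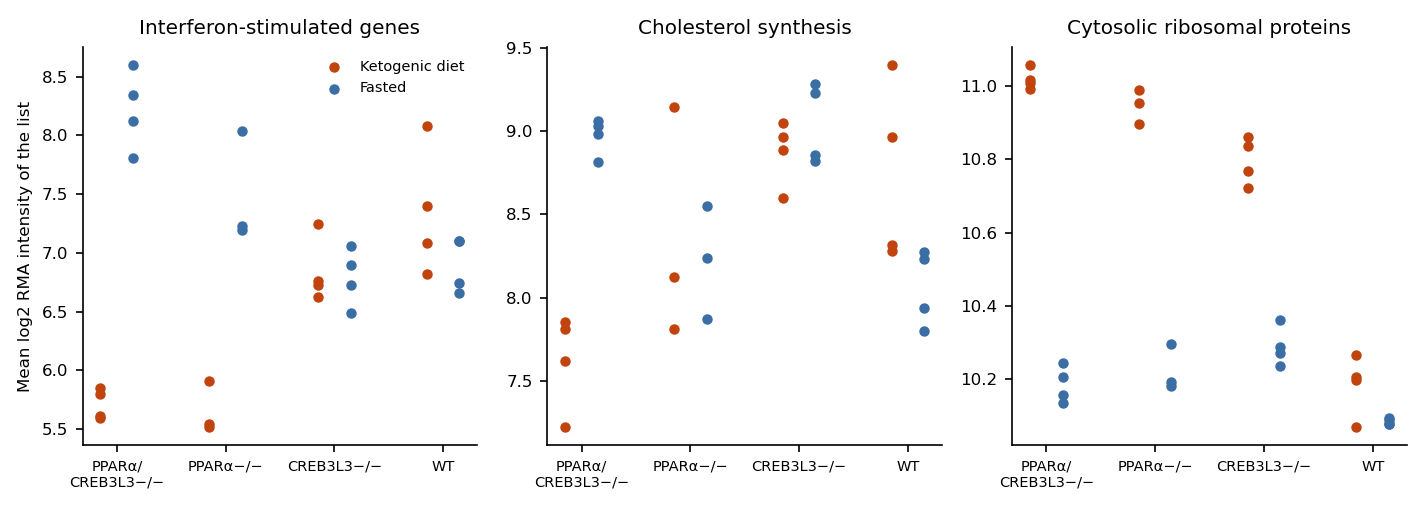
Mean log2 RMA intensity of 3 gene lists in each liver of the 8 groups, ketogenic diet in red to the left of fasted in blue within each genotype. For interferon-stimulated genes the ketogenic PPARα/CREB3L3−/− livers lie at 5.60 to 5.85 and the fasted at 7.81 to 8.60, for cholesterol synthesis at 7.23 to 7.85 and 8.82 to 9.06, and for ribosomal proteins at 10.99 to 11.06 and 10.14 to 10.25.

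Genes of antigen presentation were lower too, with 10 of 14 genes of MHC class I and the immunoproteasome called lower and 0 higher. Psmb8, an immunoproteasome subunit, fell by 1.48 (SE 0.18, adjusted p = 3.37e-07) and beta-2 microglobulin, B2m, by 0.62 (SE 0.06, adjusted p = 3.94e-09). The chemokine Cxcl9, which draws T cells, had 4.76, 4.45, 4.30 and 4.95 in ketogenic livers and 8.27, 7.74, 8.77 and 9.01 in fasted livers, and fell by 3.83 (SE 0.37, adjusted p = 8.33e-09). Chosen after their values were seen, Cxcl10 fell by 3.31 (SE 0.33, adjusted p = 1.79e-08) and the MHC class II gene H2-Ab1 by 3.28 (SE 0.25, adjusted p = 8.7e-11). Markers of non-parenchymal cells differed by cell type in how many were called. Of 16 macrophage markers 9 fell and 2 rose, with list means of 6.73 to 7.22 in ketogenic and 7.23 to 7.60 in fasted livers. Clec4f, which defines Kupffer cells, had a difference of -1.69, and the 2 that rose were Gpnmb (2.75) and Marco (1.64). Of 10 sinusoidal endothelial markers 9 fell, with list means of 7.27 to 7.90 in ketogenic and 8.56 to 8.74 in fasted livers. The list means of T and NK cell markers were 2.99 to 3.13 in ketogenic and 3.30 to 3.55 in fasted livers, with 0 of 12 called. Those of B and plasma cell markers were 3.25 to 3.37 in ketogenic and 3.72 to 4.02 in fasted livers, with 1 of 8 called lower, Cd74 (-3.14), the invariant chain of MHC class II. The means of both lymphocyte lists lay below the array medians (4.22 to 4.38), so a decrease of dim members could be missed. Of 3 erythroid markers 2 fell, Alas2 (-3.48) and Car1 (-3.20), and of 10 stellate cell markers 3 fell. Among 8 cholangiocyte, 9 neutrophil and 7 pancreatic acinar markers 0 were called, and of 8 adipocyte markers 1 fell, Car3, which hepatocytes also express. The part of these markers in the interferon result was not tested.

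Ribosomal protein genes rose as a block. All 37 measured cytosolic ribosomal protein genes were higher on the ketogenic diet, with a median of 0.81 and a range of 0.30 to 1.63. The list means were 11.02, 10.99, 11.06 and 11.01 in ketogenic livers and 10.16, 10.25, 10.21 and 10.14 in fasted livers, with a gap many times the spread within either group. Rpl13 had 11.44, 11.31, 11.43 and 11.39 on the diet and 10.00, 10.13, 10.19 and 10.04 after the fast, and rose by 1.30 (SE 0.07, adjusted p = 1.12e-13). Rplp1, of the ribosomal stalk, rose by 1.01 (SE 0.05, adjusted p = 8.72e-14). The median response was 0.67 in PPARα−/−, 0.45 in CREB3L3−/− and 0.09 in WT livers. The double knockout response was more positive than that of WT for 36 of the 37 genes (3.4% of all genes with that sign). It was more positive than that of CREB3L3−/− for 15 (8.07%). It was called different from PPARα−/− for 0 of the 37 (2.29% of all genes in either direction), with a median difference of 0.10. Of 22 ribosome biogenesis genes 6 rose and 0 fell, and 3 rose with the 8 double knockout arrays fitted alone. Ribosomal protein genes have many processed pseudogenes, and their probe sets may take up signal from these.

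Of 31 respiratory chain genes, 15 rose and 0 fell (median 0.27), and 8 rose with the 8 double knockout arrays fitted alone. Ndufv1, of complex I, had 9.71, 9.59, 9.90 and 9.83 in ketogenic livers and 9.08, 9.10, 9.13 and 9.14 in fasted livers, and rose by 0.65 (SE 0.07, adjusted p = 1.93e-07). In the TCA cycle 3 of 19 rose and 1 fell, and the malate dehydrogenase Mdh2 rose by 0.82 (SE 0.06, adjusted p = 2.48e-11). When each array was centred on its median, 6 genes of the TCA cycle rose and 0 fell. Mitosis genes showed little response. Of 26 mitosis genes 1 rose and 0 fell, with list means of 3.50 to 3.59 in ketogenic and 3.48 to 3.78 in fasted livers. These means lay below the array medians (4.22 to 4.38), so a decrease of dim members could be missed. The member that rose was Mad2l1, a spindle checkpoint gene, by 1.28 (SE 0.21, adjusted p = 4.44e-05). All 26 responded less than in CREB3L3−/− livers, where the median was 4.49, and a difference with that sign was called for 13.7% of all genes. Among 27 genes of DNA replication 8 rose and 3 fell, and Rrm2, of nucleotide reduction, rose by 1.12 (SE 0.19, adjusted p = 7.49e-05).

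Genes of stress programmes were called in both directions. Of 30 genes of the integrated stress response 3 rose and 3 fell (median 0.11), shares near the 7.85% and 9.53% of all genes. Mthfd1l, of mitochondrial folate metabolism, rose by 2.23 (SE 0.23, adjusted p = 2.73e-08), and Psat1, of serine synthesis, rose by 1.82 (SE 0.40, adjusted p = 0.000996) though its groups overlapped and the call was lost with the 8 double knockout arrays fitted alone. Of 26 endoplasmic reticulum chaperones and unfolded protein response genes 9 fell and 2 rose. Ern1, the sensor IRE1α that splices Xbp1, fell by 1.29 (SE 0.19, adjusted p = 6.93e-06). Among 23 NRF2 antioxidant genes 3 rose and 4 fell, and 1 fell without ketogenic liver 3 and 2 without fasted liver 3. Nqo1, a quinone reductase, had 8.12, 8.40, 8.31 and 8.04 in ketogenic livers and 6.89, 7.40, 7.03 and 6.83 in fasted livers, and rose by 1.18 (SE 0.19, adjusted p = 2.44e-05). Gclc, the rate-limiting subunit of glutathione synthesis, had 11.05, 10.94, 9.71 and 10.06 on the diet and 11.70, 11.95, 11.81 and 11.57 after the fast, and fell by 1.32 (SE 0.24, adjusted p = 0.00015).

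Besides Igf2bp3, 2 other genes of the fetal liver and regeneration list of 14 rose, and 1 fell. Afp, alpha-fetoprotein, had 5.44, 6.93, 4.79 and 6.37 in ketogenic livers and 3.98, 4.06, 4.05 and 4.21 in fasted livers, and rose by 1.81 (SE 0.35, adjusted p = 0.000266). The fasted livers lay close together and the ketogenic livers spread over more than 2 log2 units. Tff3, a trefoil factor, had 5.33, 5.61, 7.01 and 6.16 on the diet and 4.87, 4.47, 4.53 and 4.42 after the fast, and rose by 1.46 (SE 0.33, adjusted p = 0.00146). Without ketogenic liver 3 the difference of Tff3 was 1.13 and did not pass. Neither Afp nor Tff3 was called with the 8 double knockout arrays fitted alone. The median of the whole list was 0.03, that of all genes 0.03. Of 17 collagen and fibrosis genes 0 were called.

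The remaining lists are given by their counts, to be set against 7.85% of all genes higher and 9.53% lower. Of 22 glycolysis and glycogen genes 3 rose and 1 fell, and of 20 FOXO and insulin-withdrawal genes 1 rose and 1 fell. Of 18 glucocorticoid-responsive genes 1 rose and 2 fell, and of 18 circadian clock genes 2 rose and 1 fell. Of 29 autophagy and lysosome genes 2 rose and 6 fell, and of 21 p53 targets 3 rose and 3 fell. Breakdown of branched-chain amino acids, whose first step takes place mainly outside the liver, had 6 of 22 genes lower and 0 higher (median -0.18).

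The diet responses of the genotypes were then set side by side, and their differences tested. The 3 differences below share the 8 double knockout arrays. Across the 18820 genes, the double knockout response correlated with that of PPARα−/− livers at a Pearson r of 0.72, with that of CREB3L3−/− livers at 0.36 and with that of WT livers at 0.18, as a description over genes, which are not independent, of comparisons that share no arrays. Of the 1477 genes that rose, 675 (45.7%) also rose in PPARα−/− livers, which is 61.5% of the 1098 genes that rose there (5.83% of all genes). Of the 1793 that fell, 695 (38.8%) also fell there, 66.7% of 1042 (5.54% of all genes). In CREB3L3−/− livers, where far more genes were called, 775 of the 1477 also rose (52.5%, and 21.4% of 3627 there, which are 19.3% of all genes) and 787 of the 1793 also fell (43.9%, and 32.0% of 2456 there, which are 13%). In WT livers, 201 of the 1477 also rose (13.6%, and 29.6% of 678 there, which are 3.6% of all genes) and 128 of the 1793 also fell (7.14%, and 41.8% of 306 there, which are 1.63%). Genes called in the opposite direction numbered 2 and 1 of the risen and fallen genes in PPARα−/− livers, 108 and 226 in CREB3L3−/− livers and 9 and 48 in WT livers. The PPARα−/− groups hold 3 livers each, against 4 in the others.

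The diet response differed from that of PPARα−/− livers for 461 of the 21218 probe sets with 1 symbol (2.17%), 172 more positive (0.811%) and 289 more negative (1.36%). This count was 234 without PPARα−/− fasted liver 1 and 247 without PPARα−/− ketogenic liver 2. The differences of single genes named below were not read with a PPARα−/− liver left out. The most positive difference was that of Igf2bp3, at 4.10 (SE 0.32, adjusted p = 6.02e-08), as its response was 0.93 in PPARα−/− livers. Gldn, whose protein gathers sodium channels at nodes of Ranvier, had 6.71, 7.03, 6.35 and 6.81 in ketogenic and 3.45, 4.06, 3.50 and 3.62 in fasted PPARα/CREB3L3−/− livers, a response of 3.07 against -0.01 in PPARα−/− livers, and the difference was 3.08 (SE 0.51, adjusted p = 0.00335). Peg3, a paternally expressed zinc finger gene, had 7.79, 7.48, 7.72 and 8.10 on the diet and 5.82, 5.92, 5.59 and 5.49 after the fast in PPARα/CREB3L3−/− livers, a response of 2.07 against -0.21 in PPARα−/− livers. The responses of Gldn and Peg3 in PPARα−/− livers were thus close to 0. The other leading positive differences were Tff3 (2.77), the methyltransferase Setdb2 (2.25) and the citrate transporter Slc13a5 (2.22). Setdb2 was not called without ketogenic liver 1 (2.22), 3 (2.14) or 4 (2.10), and its diet response in the double knockout was lost in the same way (1.40 to 1.51).

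Among the most negative differences from PPARα−/− livers were genes that responded upward there and less so, or downward, in the double knockout. Serpina7, thyroxine-binding globulin, had 9.37, 9.59, 7.54 and 7.99 in ketogenic and 8.98, 8.54, 9.20 and 9.47 in fasted PPARα/CREB3L3−/− livers, a response of -0.43 against 3.34 in PPARα−/− livers, and the difference was -3.77 (SE 0.91, adjusted p = 0.039). The stress-induced factor Atf3 had a difference of -3.44 (SE 0.88, adjusted p = 0.0498), the cystine transporter Slc7a11 of -2.98 (SE 0.73, adjusted p = 0.0426) and the growth arrest gene Gadd45a of -2.87 (SE 0.59, adjusted p = 0.0183). The responses of Atf3, Slc7a11 and Gadd45a were -0.88, 1.02 and -0.06 in the double knockout, against 2.56, 4.00 and 2.81 in PPARα−/− livers. Among the double knockout livers, Atf3 was no longer called without any 1 of ketogenic livers 1, 2 and 4 or of fasted livers 1, 2 and 3, with differences of -3.45 to -3.10. Slc7a11 was not called without ketogenic liver 3 or 4 or fasted liver 2 or 3, with differences of -2.83 to -2.54, and Serpina7 was not called without ketogenic liver 3 (-3.40). With the compared groups fitted alone, Serpina7, Atf3, Slc7a11, Gadd45a and Setdb2 were not called, nor was Idi1. Idi1, by contrast, fell in PPARα/CREB3L3−/− livers and had a response of -0.39 in PPARα−/− livers, with a difference of -2.79 (SE 0.66, adjusted p = 0.0361). Of the 20 genes of cholesterol synthesis, 13 were more negative than in PPARα−/− livers (1.46% of all genes with that sign). That count rests on single PPARα−/− livers, whose list means were 8.12, 9.15 and 7.81 on the diet and 7.87, 8.55 and 8.24 after the fast. It was 1 without PPARα−/− fasted liver 1, 1 without PPARα−/− ketogenic liver 2, 5 without PPARα−/− fasted liver 3 and 6 without the double knockout's ketogenic liver 3. Against WT, 16 of the 20 were more negative (6.36% of all genes with that sign). Against CREB3L3−/−, 7 were (13.7%), and 2 without CREB3L3−/− fasted liver 2 or the double knockout's ketogenic liver 3, 3 without CREB3L3−/− fasted liver 3, and 4 without CREB3L3−/− ketogenic liver 4 or the double knockout's fasted liver 3.

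**Figure D5:**
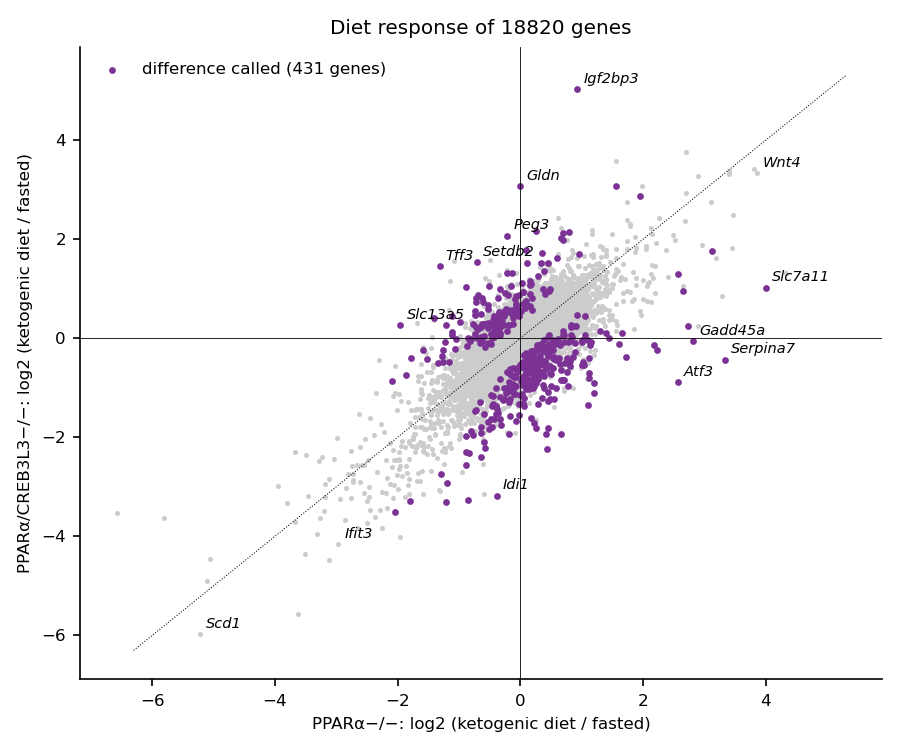
Diet response (log2, ketogenic diet over fasted) of 18820 genes in PPARα/CREB3L3−/− livers against that in PPARα−/− livers; purple points are the 431 genes whose difference was called, and the dotted line marks equal responses. Igf2bp3, at 5.03 against 0.93, lies farthest above the line, and Serpina7, at -0.43 against 3.34, farthest below it.

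From WT livers the response differed for 2293 probe sets (10.8%), 1027 more positive (4.84%) and 1266 more negative (5.97%). Car3 led the negative ones, at -6.07 (SE 0.75, adjusted p = 1.82e-06), with a response of 0.51 in WT livers. It was followed by Serpina4-ps1 (-5.19), Ifit3 (-4.83), Gbp3 (-4.68), Ifit1 (-4.63) and 9030619P08Rik (-4.53). Treh, which splits the sugar trehalose, led the positive ones with 7.08, 7.11, 7.04 and 7.05 in ketogenic and 4.24, 4.31, 4.15 and 3.32 in fasted PPARα/CREB3L3−/− livers, a response of 3.07 against -0.49 in WT, and a difference of 3.56 (SE 0.36, adjusted p = 9.38e-08). Wnt4 had 7.85, 7.62, 7.96 and 7.02 on the diet and 3.99, 4.24, 4.24 and 4.67 after the fast, a response of 3.33 against -0.12 in WT, and a difference of 3.45 (SE 0.40, adjusted p = 8.99e-07). Igf2bp3 (3.55), Pmm1 (3.53), Gpx3 (3.49) and Gipc2 (3.24) completed the 6 largest. In PPARα−/− livers the responses of Wnt4, Pmm1 and Gipc2 were 3.85, 3.81 and 2.70. Scd1, the leading decrease of the double knockout, also had a response of -3.62 in WT, -5.22 in PPARα−/− and -3.30 in CREB3L3−/− livers.

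From CREB3L3−/− livers the response differed for 4518 probe sets (21.3%), 1766 more positive (8.32%) and 2752 more negative (13%). The 6 most negative were Sprr1a, a cornified envelope protein induced by injury (-7.61), Mki67, the marker of cycling cells (-6.39), D17H6S56E-5 (-6.18), the steroid reductase Akr1c18 (-6.04), the cadherin Cdh17 (-5.83) and cyclin B2, Ccnb2 (-5.74). None of these 6 was called in the double knockout itself, whose Mki67 levels were 3.10, 3.71, 3.53 and 3.72 on the diet and 4.18, 4.01, 4.40 and 4.69 after the fast, against means of 9.11 ± 0.50 and 3.52 ± 0.39 in ketogenic and fasted CREB3L3−/− livers (SD, n = 4 each). The 6 most positive were Gm15441 (4.69), Cyp3a25 (4.56), Cyp2c37 (4.50), Cyp2c38 (4.44), Cyp2c29 (4.44) and Dab1 (4.42). The 4 cytochromes P450 among them, enzymes of drug and steroid oxidation, had responses of -1.11 to -0.07 in the double knockout, none of them called, although Cyp2c37 and Cyp2c29 were with the 8 double knockout arrays fitted alone. Of the 17 collagen and fibrosis genes 12, and of the 16 macrophage markers 15, responded more negatively than in CREB3L3−/− livers (13.7% of all genes with that sign). Of 19 genes of mitochondrial fatty acid oxidation 17 responded more positively than there (8.07% of all genes with that sign), where their median was -1.06.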

How the data were processed

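Total RNA from 30 mouse livers was hybridized to Affymetrix Mouse Gene 1.1 ST arrays. The authors quality-checked the arrays and normalized them by robust multichip averaging (RMA, AffyPLM in Bioconductor), and what they deposited is the log2 RMA intensity of each probe set, from 0.698 to 13.7 (array medians 4.22 to 4.38). The methods name a remapped probe grouping, whereas the probe set identifiers are those of the array's transcript clusters, so which grouping of probes a value stands for was not settled. Arrays have no read depth, so precision is limited by their number. The probe set annotation named 1 gene symbol for 21218 of 35556 probe sets, several for 1881 and none for 12457.

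All 35556 probe sets were fitted with limma 3.58.1 (R 4.3.3) on 8 group means with an intensity trend (22 residual and 3.47 prior degrees of freedom), and p-values were Benjamini-Hochberg adjusted over all of them. A call is P under 0.001, two-sided, with a fold change beyond 1.2. The methods' intensity-based moderated test was an alternative. Replicates were biological per the methods, and were taken as separate mice. The replicate numbers were taken from the titles, and same-numbered ketogenic and fasted double knockout livers did not deviate together (correlations of -0.060 to 0.085), so that no block entered the fit.

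Named genes are the 14 largest called increases and the 14 largest called decreases without overlap, the 6 most positive and the 6 most negative called differences from each genotype (by probe set, so that Idi1 took up 2 of the 6 negative ones against PPARα−/−), up to 5 members of each described list by lowest P, and Ppara, Creb3l3 and Fgf21. Acaca, Cpt1a, Cyp7a1, Cxcl10, Fasn, G6pc, H2-Ab1, Hamp, Pck1 and others outside this rule were chosen after their values were seen. The 45 pathway lists and 11 marker lists hold 1221 entries, of which 1081 matched a measured gene (10 by a synonym), read on the probe set with the highest mean. The comparison, the members and the lists were chosen with earlier results of these data known. Promoter sequences are those of RefSeq, on GRCm38.p6. Alternatives changed the variance model, the scaling, the filter on dim probe sets, the thresholds, the arrays in the fit and the replicate block. The test was run on simulated data before use.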

Additional observations from a re-analysis of the deposited data

Results flagged for a closer look

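Within the groups of 4 double knockout livers, a single liver stood far from the other 3 for 17 of 358 sets of values, by Dixon's test with a critical ratio of 0.829, where chance flags about 1 in 20. In 9 of the 17 it was ketogenic liver 3. Its values were 3.06 for Slc22a30 (others 5.86 to 6.17), 9.67 for Otc (10.7 to 10.8), 4.78 for Cyp7a1 (7.56 to 7.85), 4.16 for H2-Ab1 (5.16 to 5.33), 12.3 for Rplp1 (12.2 in the other 3) and 6.51 for Mad2l1 (5.95 to 6.01). Its list means were 8.50 for FOXO and insulin-withdrawal genes (8.28 to 8.31), 8.37 for bile acid synthesis and transport (8.92 to 9.0) and 8.89 for iron handling (8.97 to 8.98). The other ketogenic livers set apart were liver 2 for Sprr1a (8.27, others 5.65 to 6.06), liver 1 for D17H6S56E-5 (3.95, others 4.69 to 4.80) and liver 4 for Glul (11.1, others 10.2 to 10.4). Among the fasted livers these were liver 4 for Treh (3.32, others 4.15 to 4.31), Otc (12.1, others 11.8), Igf1 (11.4, others 11.6) and the mean of the lipid droplet list (7.83, others 7.93 to 7.95), and liver 2 for Fitm1 (6.72, others 7.88 to 8.02).

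The tested difference of the diet response, double knockout minus another genotype, set apart the genes named by rank. Against WT it was -6.07 for Car3, -5.19 for Serpina4-ps1, -4.83 for Ifit3, -4.68 for Gbp3, -4.63 for Ifit1 and -4.53 for 9030619P08Rik, and 3.56 for Treh, 3.55 for Igf2bp3, 3.53 for Pmm1, 3.49 for Gpx3, 3.45 for Wnt4 and 3.24 for Gipc2. Against PPARα−/− it was -3.77 for Serpina7, -3.44 for Atf3, -2.98 for Slc7a11, -2.87 for Gadd45a and -2.79 for Idi1, and 4.10 for Igf2bp3, 3.08 for Gldn, 2.77 for Tff3, 2.28 for Peg3, 2.25 for Setdb2 and 2.22 for Slc13a5. Against CREB3L3−/− it was -7.61 for Sprr1a, -6.39 for Mki67, -6.18 for D17H6S56E-5, -6.04 for Akr1c18, -5.83 for Cdh17 and -5.74 for Ccnb2, and 4.69 for Gm15441, 4.56 for Cyp3a25, 4.50 for Cyp2c37, 4.44 for Cyp2c38, 4.44 for Cyp2c29 and 4.42 for Dab1. These 35 values are a selection by size.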

How the results depend on the processing

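With an adjusted p under 0.05 and no fold criterion, 5939 probe sets differed between the regimens (3010 higher on the diet, 2929 lower). With a fold beyond 2 there were 948 (393 higher, 555 lower). The same settings gave 3523 and 852 for the difference from WT (3507 with an adjusted p under 0.05 and a fold beyond 1.2), 6846 and 2453 for that from CREB3L3−/−, and 192 at a fold beyond 2 for that from PPARα−/−. At the usual thresholds the last was 253 with the compared groups fitted alone, against 461. Leaving out 1 array gave 3394 to 3673 calls of the diet response (1680 to 1839 higher, 1628 to 1858 lower), 1978 to 2264 for the difference from WT, 234 to 514 from PPARα−/− and 4112 to 4757 from CREB3L3−/−, and 11 to 16 lower genes of cholesterol synthesis, 36 to 37 higher ribosomal protein genes and 28 lower interferon-stimulated genes. With the replicate block, although same-numbered livers shared only a number, the counts were 3879, 2304, 451 and 4524. Median centring gave a ribosomal protein median of 0.88, and leaving out fasted liver 4 gave 0.76. With the compared groups fitted alone, the lower genes of the cytochromes P450 families 1 to 3 were 16 and of apolipoproteins and lipoprotein handling 7, and the higher genes of the respiratory chain were 8 and of ribosome biogenesis 3. Median centring gave 1 lower gene of the NRF2 antioxidant genes, 3 of iron handling and 3 of the growth hormone and IGF1 axis. The cause of these shifts was not tested. Of 2331 values of 123 named diet responses under the alternatives, 2313 stayed called or stayed not called. The call was lost in 10 (Tff3, Setdb2, Acaca, Plin2, Hp, Psat1, Afp) and gained in 8 (Cyp2c37, Cyp2c29, Ppara, Fasn, G6pc, Pck1, Hamp). In 0 did the direction turn with a call in either fit. A change of sign in a value that was not called was not counted. Of 660 values of 35 named differences, 20 lost the call, 7 of these for Atf3, 5 for Slc7a11, 4 for Setdb2, 2 for Serpina7 and 1 each for Gadd45a and Idi1. Among the fits that left out 1 array, only those without a double knockout liver were read for named genes. How far a named difference rests on 1 liver of another genotype was therefore not examined. The number of livers limits small differences, most so for the groups of 3.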
